A study of Mus musculus with 2 samples.

Results

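Caspases, the BCL2 family and the inhibitor of apoptosis proteins (IAPs) were examined in back skin of mice given FGF18, a secreted growth factor made in the hair follicle, against mice given phosphate-buffered saline (PBS). Members were the probes whose gene name in the scanner files was a numbered caspase, began with Bcl2, was a numbered Birc gene, or was 1 of 15 further names such as Bax, Mcl1, Apaf1 and Diablo. They came to 44 of 27577 named genes on the array, or 71 of 41165 probes. The FGF18 group was male C3H/HeN skin 61 days of age, 5 days after depilation to start anagen, when follicles grow, and 24 h after 1 µg of FGF18 protein had been placed under the skin. The PBS group was skin of the same strain, sex, age and hair stage, with PBS injected instead. The design text has RNA pooled within a group and 1 single-colour Agilent array hybridised for each, whereas the extraction protocol has the mice extracted separately and says nothing of a pool. The labels name 3 mice without saying whether that was per group. The PBS sample is titled telogen, the resting phase, although its source name and hair cycle entry say anagen. With 1 array per group there was no replicate check and no p-value, and precision is limited by there being a single array on each side.

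Caspases are cysteine proteases that are made as inactive precursors. Initiator caspases are activated on platforms, caspase-8 at death receptors and caspase-9 on APAF1, and they cut the executioner caspases that dismantle the cell. Inflammatory caspases instead process interleukin-1 family cytokines and gasdermin D, which opens pores in the membrane. BCL2 proteins decide whether mitochondria release the activators of caspase-9, with BAX and BAK as pore formers, BCL2-type guardians against them and BH3-only proteins as triggers. Most IAPs restrain caspases or signal from receptors of the tumour necrosis factor family. In skin, caspase-14 stands apart, because it works in terminally differentiating keratinocytes of the cornified layer, where it takes part in the breakdown of filaggrin and not in cell death. Apoptosis in the follicle is a feature of catagen, the regression phase.

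A signal here is the scanner software's processed signal of a probe, and a ratio is log2 of the FGF18 signal minus log2 of the PBS signal after each array was divided by its own 75th percentile (1020 for FGF18 and 899 for PBS). Equal signals therefore give a ratio slightly below 0. Scaling to 8 spike-in probes in place of the 75th percentile raised every ratio by 0.79, so each direction given is relative to the bulk of genes. With it, 12 of 40 members were at least 2-fold higher, against 14.8% of all genes. By as much, 0 members were lower, against 0.169% of all genes, and Casp14 was at -0.38. The median of 16610 genes measured on both arrays was -0.07. The error given with a ratio, marked ±, combines the scanner software's error estimates for both arrays, and it was 0.21 for the median gene. For bright probes that estimate is the software's preset share of the signal, the same for every such probe, and it does not include the spread between mice. Spots well above background made up 62.4% of 43379 with FGF18, against 61.5% with PBS, and 0 were saturated. The skin label fitted its markers: all 8 keratinocyte and all 9 anagen follicle markers were well above background on both arrays.

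Both arrays measured 40 of the 44 members, 1 more was measured with FGF18 alone, and 3 with neither. With FGF18, Casp14 was lower by over 2-fold, while Naip5, an IAP-family sensor of bacterial flagellin, was higher by over 2-fold. Each direction thus had 1 of 40 members (2.5%), against 1.54% of all genes higher and 0.987% lower, and 5% of members against 2.53% of genes in either direction, which at 2 genes is near the background. At 1.5-fold, 3 members (7.5%) were higher and 1 (2.5%) was lower, against 3.79% and 4.82% of all genes, or 10% against 8.61% either way. Past 3-fold there were 0 members, against 0.963% of all genes. The median ratio of the 40 was 0.03, and 26 of them lay above the all-gene median. From the all-gene median, 6 members (Casp14, Naip5, Naip2, Casp12, Casp4 and Bcl2l10) were more than 2 times their error away, as were 13.1% of all genes, against 15% of members. The other 34 were not, and 24 members (60%) lay within 1 error, as did 63.8% of all genes.

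**Figure D1:**
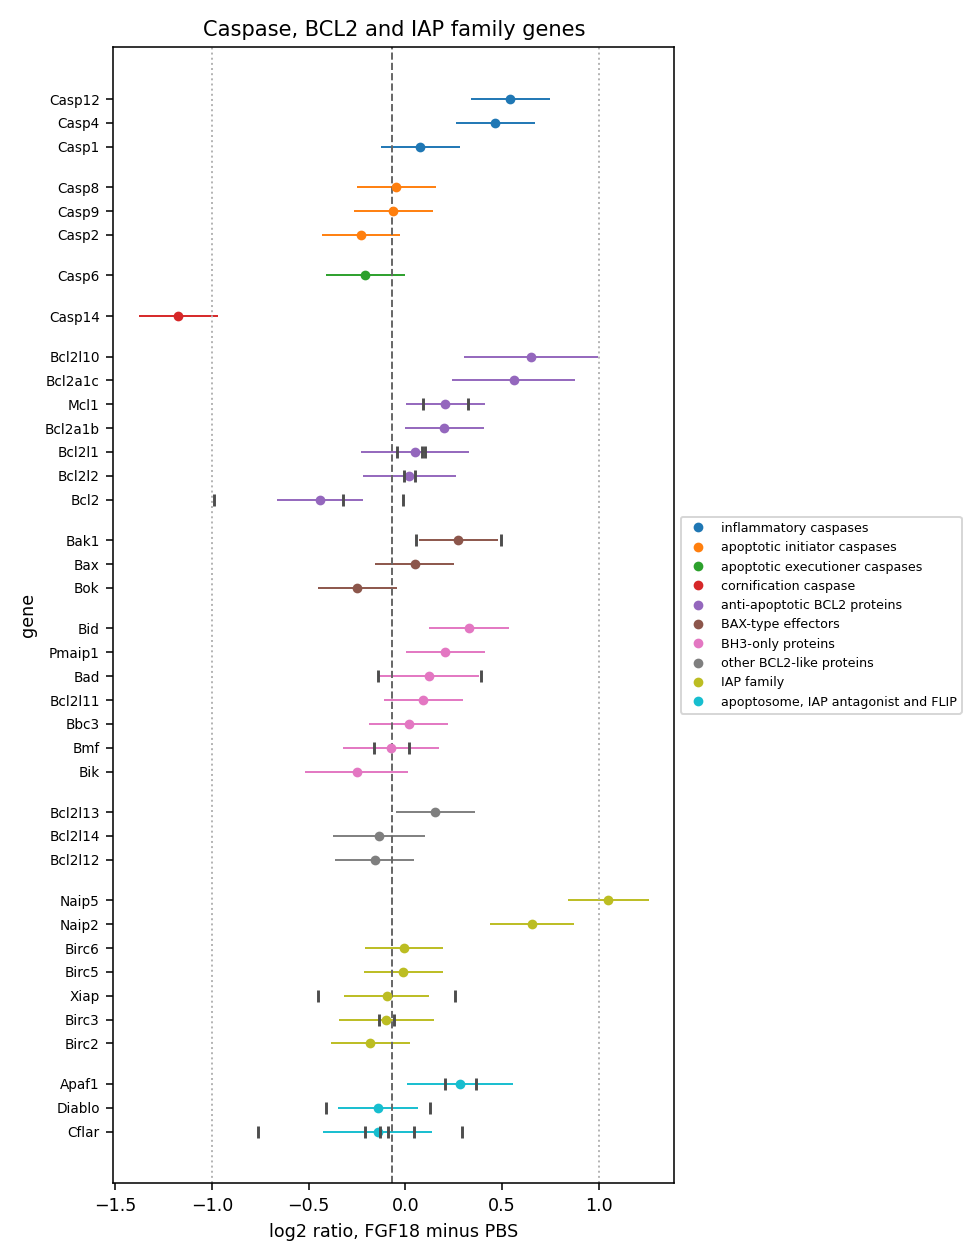
Log2 ratio of signals, FGF18 minus PBS, for 38 family genes measured on both arrays, grouped by role. Dots are means over probes, bars the software's error, ticks single probes, the dashed line the all-gene median of -0.07 and dotted lines 2-fold. Only Casp14 and Naip5 lie past a dotted line, and the ticks of Bcl2, Cflar and Xiap are far apart.

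The caspase classes differed in their medians. The 3 inflammatory caspases had a median ratio of 0.47, the 6 apoptotic caspases a median of -0.05, and the cornification caspase Casp14 a ratio of -1.17. Relative to the all-gene median these were 0.54, 0.02 and -1.10. With 3, 6 and 1 genes the classes are small, and these medians are a description of 2 arrays.

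Casp12, an inflammatory-type caspase linked to stress of the endoplasmic reticulum, had a signal of 998 on the FGF18 array, against 604 on the PBS array, a ratio of 0.54 ± 0.20 (1.46-fold higher). Casp4, the mouse gene for caspase-11, which senses bacterial lipopolysaccharide inside the cell and cuts gasdermin D, had 2680 on the FGF18 array, against 1710 on the PBS array, a ratio of 0.47 ± 0.20 (1.38-fold). Both were higher on the FGF18 array by more than their error, and neither reached 2-fold. Casp1, the caspase of the inflammasome that matures interleukin-1β, had 3030 and 2530 on the FGF18 and PBS arrays, a ratio of 0.08 ± 0.20. Casp1 was therefore the flattest of the 3. The differences within the class, 0.46 ± 0.29 for Casp12 minus Casp1 and 0.39 ± 0.29 for Casp4 minus Casp1, were less than 2 times their error. These genes are direct neighbours on chromosome 9 in the order Casp1, Casp4, Casp12, as the RefSeq gene table of GRCm38.p6 lists them.

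The initiator caspases were close to the rest of the genes. Casp8, the caspase of death receptors, had 1790 on the FGF18 array, against 1630 on the PBS array (ratio -0.05 ± 0.20). Casp9, the caspase of the apoptosome, had 2640 and 2430 on the FGF18 and PBS arrays (-0.06 ± 0.20). Casp2, an initiator associated with the PIDDosome complex and DNA damage, had 15000 and 15500 on the FGF18 and PBS arrays (-0.23 ± 0.20). All 3 lay within 1 error of the all-gene median.

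Casp6, an executioner that cuts lamin A, had 4610 and 4690 on the FGF18 and PBS arrays (-0.21 ± 0.20), and it too lay within 1 error of the all-gene median.

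Casp14 had a signal of 1040 on the FGF18 array, against 2070 on the PBS array, a ratio of -1.17 ± 0.20 (2.26-fold lower), which placed it at the 0.56th percentile of all genes measured. It was the only caspase past 2-fold. Its single probe lies on chromosome 10 from 78115398 to 78115457 in the array's own annotation, whose genome build is not named. Casp14 minus Casp1 was -1.25 ± 0.29 and Casp14 minus Casp2, the nearest apoptotic caspase, was -0.95 ± 0.29. Without any scaling between the arrays Casp14 was just short of 2-fold, at -0.99.

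**Figure D2:**
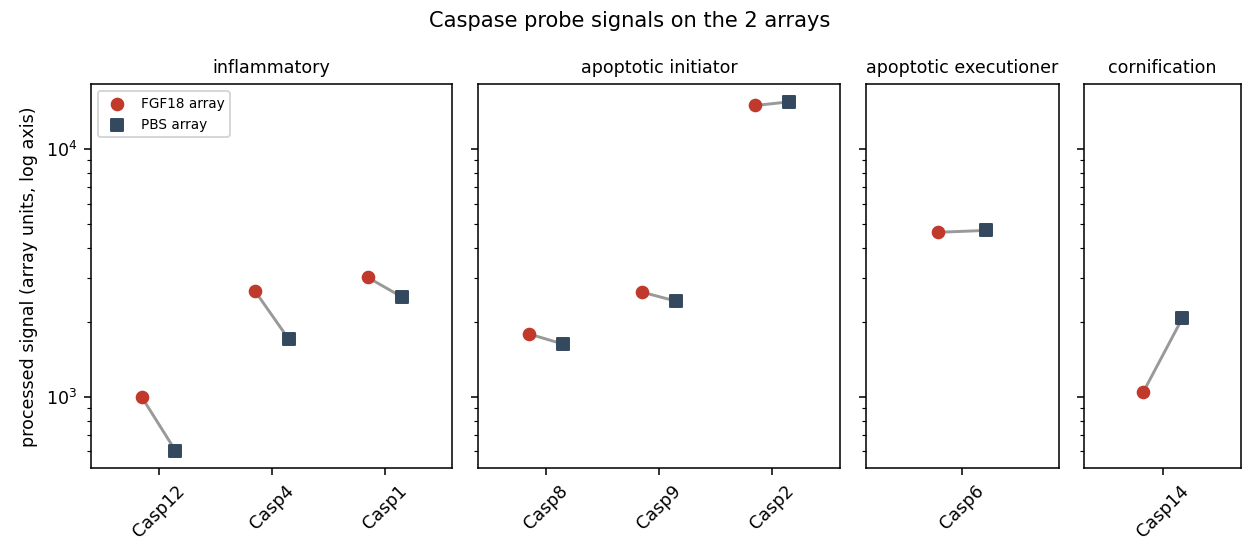
Processed signal (unscaled, log axis) of the probe of each caspase described here on the FGF18 array (circles, left) and the PBS array (squares, right), by class. Casp14 is below its PBS signal while Casp12 and Casp4 stand above theirs; heights of different genes cannot be compared, because probes differ in brightness.

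In the same arrays the genes of the cornified layer that form the setting of Casp14 were mostly lower. Of 25 listed genes, all measured, 21 were below the all-gene median, 4 were lower by 2-fold or more and 0 higher by as much, with a median ratio of -0.63. Those 4 were Rptn, the repetin gene (-1.42 ± 0.27), Flg, the gene of filaggrin and its precursor (-1.14 ± 0.20), Cdsn, the corneodesmosin of cornified junctions (-1.02 ± 0.20), and Ivl, the envelope protein involucrin (-1.01 ± 0.20). Only Rptn was lower than Casp14, and 24 of the 25 were higher. Flg had signals of 11500 on the FGF18 array, against 22400 on the PBS array, and its ratio was within the error of that of Casp14. At the other end of the list was Krt2, a keratin of upper epidermal layers, at 0.46 ± 0.20. The summed scaled signal of keratinocyte markers was nearly level, at 513 for FGF18 and 566 for PBS (in units of each array's 75th percentile). Krt14 was at 0.02, Krt5 at -0.06 and Krt10 lowest at -0.39. By ratio, 7 of these 8 markers were below 0 and 4 were above the all-gene median, with a median of -0.14. Krt1 and Krt10 are also in the cornified layer list. Anagen follicle markers summed to 225 and 304 on the FGF18 and PBS arrays, with Krt27 lowest at -0.84 and Krt35 highest at 0.07. Of these 9 markers, 4 were above the all-gene median, and the median ratio was -0.14. The sum leans on the brightest, Krt71, with 87400 for FGF18 and 119000 for PBS (-0.63). The part of the keratinocyte and follicle markers in the Casp14 value was not tested. In whole skin, fewer cells of a type and less RNA per cell cannot be told apart.

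The upstream sequences of Casp12, Casp4 and Casp14, chosen because they lay farthest from the all-gene median among caspases, are shown to set the classes side by side at the level of DNA letters. RefSeq promoter windows of GRCm38.p6 were found for 39 of the 44 members, and the 250 bases before the transcript start were searched on both strands for 4 motifs chosen with the values known. The motifs were GAS (TTCNNNGAA, the site of STAT factors), the ISRE core (TTTCNNTTTC, interferon response), the NF-kB site, and the CACCC box (GGGTGTG or GGGGTGG, Krüppel-like factors). Capitals mark GAS-type letters in Casp12 (chr9:5345226-5345475, plus strand), NF-kB-type letters in Casp4 (chr9:5308599-5308848, plus strand, the first listed start) and CACCC-type letters in Casp14 (chr10:78718294-78718543, minus strand).
Casp12: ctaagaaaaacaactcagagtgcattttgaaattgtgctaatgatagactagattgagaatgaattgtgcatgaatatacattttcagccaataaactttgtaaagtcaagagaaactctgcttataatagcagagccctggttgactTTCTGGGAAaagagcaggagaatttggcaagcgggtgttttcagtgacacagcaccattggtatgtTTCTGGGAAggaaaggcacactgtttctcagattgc
Casp4: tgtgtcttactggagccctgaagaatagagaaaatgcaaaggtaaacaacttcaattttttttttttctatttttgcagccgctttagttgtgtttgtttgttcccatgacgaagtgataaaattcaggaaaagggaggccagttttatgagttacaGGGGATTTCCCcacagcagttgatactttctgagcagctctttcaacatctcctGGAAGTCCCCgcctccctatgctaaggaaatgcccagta
Casp14: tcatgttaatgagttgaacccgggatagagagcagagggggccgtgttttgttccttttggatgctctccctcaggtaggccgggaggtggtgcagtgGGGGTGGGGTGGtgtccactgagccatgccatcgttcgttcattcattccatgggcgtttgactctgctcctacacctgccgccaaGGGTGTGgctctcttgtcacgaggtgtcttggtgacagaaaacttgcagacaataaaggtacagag

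Casp12 held 2 GAS matches, Casp4 held 3 NF-kB matches in 2 runs, and Casp14 held 3 CACCC matches in 2 runs, of which the first run joins 2 overlapping matches. Among all 32851 promoter windows, GAS letters occurred in 7.02%, the ISRE core in 2.98%, NF-kB letters in 7.25% and CACCC letters in 19.3%. These shares count every listed window, whereas each of the 39 members was searched in its first listed window only. Among the 39 members, Casp12 alone had GAS letters, 0 had the ISRE core and 4 had NF-kB letters (Bbc3, Birc5, Casp4 and Naip5). CACCC letters occurred in 11 (28.2%): Apaf1, Bcl2l1, Bcl2l11, Bcl2l12, Birc2, Birc3, Bmf, Casp14, Hrk, Naip2 and Naip6. They were thus not particular to Casp14, and Naip2, which was higher with FGF18, also had them. These matches describe letters and do not show binding.

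In the BCL2 family, 20 of 21 genes were measured on both arrays, with a median ratio of 0.07 and 0 past 2-fold in either direction. The guardians that hold back BAX and BAK had a median of 0.20 over 7 genes, the pore formers 0.05 over 3 and the BH3-only triggers 0.09 over 7. Guardians and triggers were thus both slightly above the all-gene median, by 0.27 and 0.16. With normexp background correction the middle guardian, Bcl2a1c, was only 0.07 above it, and the middle trigger, Bbc3, 0.10. The size and order of these offsets therefore depend on the background correction.

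Bcl2l10, a guardian best known from egg cells, had signals of 65.6 on the FGF18 array, against 36.8 on the PBS array, a ratio of 0.65 ± 0.35 (1.57-fold higher) and the highest of the guardians. Bcl2a1c, of a family of A1 genes expressed in blood cells, had 68.9 and 41.2 on the FGF18 and PBS arrays (0.56 ± 0.32). Both are dim probes near the detection floor of 23.3 on the FGF18 array, against 24.2 on the PBS array, and with normexp background correction they were at 0.08 and -0.02. The brighter A1 gene Bcl2a1b had 770 on the FGF18 array, against 590 on the PBS array, a ratio of 0.20 ± 0.20. A1 genes are close copies of each other, so a probe may also bind transcripts of its relatives.

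Mcl1, a short-lived guardian that many cells need for survival, had 19800 on the FGF18 array, against 16400 on the PBS array by its brighter probe, and 5270 and 3710 for FGF18 and PBS by the other. The probe ratios were 0.09 and 0.32, and their mean was 0.21 ± 0.20. Bcl2l1, the gene of BCL-XL, had 10 spots of 1 probe at 443 to 513 on the FGF18 array (median 470.5) and 360 to 431 on the PBS array (median 389). These are signals before scaling. After scaling the ratio was 0.10 (SD 0.09 over spots), and the mean over 3 probes was 0.05 ± 0.28. Bcl2l2, the gene of BCL-W, was at 0.02 ± 0.24.

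Bcl2 itself was the lowest guardian at -0.44 ± 0.22, and this mean rested on probes that disagreed. Its brightest probe, with 8 usable spots, had 1260 to 1360 on the FGF18 array (median 1310) and 1120 to 1190 on the PBS array (median 1165), a ratio of -0.01 with an SD of 0.04 over spots. A second probe had 545 on the FGF18 array, against 600 on the PBS array (-0.32), and a dim probe had 52.8 and 92.4 on the FGF18 and PBS arrays (-0.99). The probe by which the gene is most brightly detected therefore showed almost no difference between the arrays.

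The pore formers were near level. Bak1 had 1390 on the FGF18 array, against 870 on the PBS array by 1 probe (0.49 ± 0.20) and 476 and 404 for FGF18 and PBS by the other (0.05 ± 0.21), for a mean of 0.27. Taken by its brightest probe alone, Bak1 was 0.56 above the all-gene median. Bax, with 10 spots at 1610 to 1720 on the FGF18 array (median 1660) and 1340 to 1470 on the PBS array (median 1425), was at 0.05 with a spot SD of 0.04. Bok, a relative of BAX that does not need BH3-only triggers, had 12800 and 13400 on the FGF18 and PBS arrays (-0.25 ± 0.20).

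Among the triggers, Bid, which caspase-8 cuts to link death receptors to mitochondria, was highest, with 543 on the FGF18 array, against 381 on the PBS array (0.33 ± 0.21). The p53 targets Pmaip1 (the NOXA gene) and Bbc3 (the PUMA gene) were at 0.21 ± 0.20 and 0.02 ± 0.20, with 974 and 744 for Pmaip1 and 2710 and 2360 for Bbc3 on the FGF18 and PBS arrays. Bcl2l11 encodes BIM and is held down by ERK signalling in many cells. By its probe measured on both arrays, it had 930 for FGF18 and 769 for PBS (0.09 ± 0.20). A dimmer probe, measured with FGF18 alone, had 47.3 for FGF18 and 30.1 for PBS (0.47 ± 0.44), and another was measured on neither array. Taken by probes measured on both arrays, none of these 4 genes was as far as 2 errors from the all-gene median. Bad, whose product growth factor signalling phosphorylates, was at 0.12 as the mean of 2 probes, one with 56.2 and 54.7 for FGF18 and PBS (-0.14) and one with 220 and 148 (0.39). Bmf was at -0.07 and Bik lowest at -0.25 ± 0.27, at signals of 62.2 for FGF18 and 65.3 for PBS. Hrk, a trigger best known from neurons, was not well above background on either array. Of the less characterised BCL2-like genes, Bcl2l13 was highest at 0.15, with 3370 and 2670 for FGF18 and PBS, and Bcl2l12 lowest at -0.16, with 1200 and 1180. Bcl2l14 was at -0.14 by its probe measured on both arrays. Its dimmer probe, measured with FGF18 alone, pointed the other way, with 43.9 for FGF18 and 26.1 for PBS (0.57 ± 0.43). By probes measured on both arrays, the 3 genes were each less than 2 errors from the all-gene median.

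In the IAP family, 7 of 10 genes were measured on both arrays, with a median of -0.01, and the 2 highest were both Naip genes. The Naip genes, named Birc1 in the scanner files, encode receptors that bind bacterial flagellin or secretion-system proteins in the cytosol and hand the signal to NLRC4 and caspase-1. Naip5 had 456 on the FGF18 array, against 194 on the PBS array, a ratio of 1.05 ± 0.21 (2.07-fold higher) at the 98.6th percentile of all genes. Its only probe lies on chromosome 13 from 101312230 to 101312289 in the array's annotation. Naip2 had 270 and 151 on the FGF18 and PBS arrays (0.66 ± 0.22, 1.58-fold). Both were above the all-gene median by more than 3 times their error, and they differed from each other by 0.39 ± 0.30. With normexp background correction Naip5 was under 2-fold, at 0.82, and Naip2 was at 0.43.

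Naip6 was measured with FGF18 alone. One of its probes had 40.1 with FGF18, against 10.7 with PBS, which was not well above background. Set against the PBS floor of 24.2, it was 1.46-fold higher after scaling, a log2 difference of 0.55. That is less than the probe's own error of 0.83, so it is not a firm minimum. A second probe was not well above background on either array. Naip1, at 21.6 on the FGF18 array, against 5.35 on the PBS array, was below detection on both and has no fold. In the RefSeq table the 4 genes follow each other on chromosome 13 as Naip2, Naip5, Naip6 and Naip1, and they are close copies, so 1 transcript could reach several probes. The upstream windows of Naip5 (chr13:100247337-100247586, minus strand) and Naip2 (chr13:100202123-100202372, minus strand) are shown because both genes were higher, with the longest run they share in capitals.
Naip5: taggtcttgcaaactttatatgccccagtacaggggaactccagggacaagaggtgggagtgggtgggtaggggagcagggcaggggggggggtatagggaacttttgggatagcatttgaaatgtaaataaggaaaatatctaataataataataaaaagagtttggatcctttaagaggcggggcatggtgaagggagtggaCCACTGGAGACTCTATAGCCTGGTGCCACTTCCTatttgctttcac
Naip2: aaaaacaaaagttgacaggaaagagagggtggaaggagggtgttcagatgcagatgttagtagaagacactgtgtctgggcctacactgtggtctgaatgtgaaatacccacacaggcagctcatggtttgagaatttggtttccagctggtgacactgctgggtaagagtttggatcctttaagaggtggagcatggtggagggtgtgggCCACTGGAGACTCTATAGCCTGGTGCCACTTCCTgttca

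That shared run was 34 bases long, whereas the longest run shared by any other pair of the 4 Naip windows was 14 bases. Myeloid cells are known to express Naip genes, and leukocyte genes differed between the arrays as well. Of 9 leukocyte markers, 7 exceeded background clearly with FGF18, against 5 with PBS, while Cd8a and Ms4a1 were not well above background on either. Of the 5 measured on both, 3 were above 0, among them Ptprc, the pan-leukocyte CD45, at 0.69 ± 0.21 and Nkg7 at 0.83 ± 0.21, and 2 were below, the T cell genes Cd3e at -0.45 ± 0.24 and Cd3g at -0.49 ± 0.21. The summed scaled signal of the list was 1.14 for FGF18 and 0.895 for PBS. The 8 macrophage and monocyte markers, all well above background on both arrays, summed to 12.1 and 15.1 on the FGF18 and PBS arrays, with Itgam highest at 0.99 and Mrc1 lowest at -0.70. By ratio, 4 of the 8 were above 0 and 4 below, with a median of -0.07. The sum leans on the brightest, Lyz2, with 6662 for FGF18 and 8004 for PBS (-0.45). Neutrophil markers summed to 2.89 and 2.49 on the FGF18 and PBS arrays over 6 genes, and Retnlg was not well above background on either array. Of the 4 measured on both, S100a8 (1.82) and Csf3r (0.89) were higher with FGF18 and S100a9 (-0.34) and Cxcr2 (-0.61) were lower. The part of these cells in the Naip, Casp4 and Bcl2a1c values was not tested.

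The IAPs that act on caspases or receptors were flat. Birc5, survivin, which also serves chromosome segregation in dividing cells, had 14300 on the FGF18 array, against 12700 on the PBS array (-0.01 ± 0.20). Birc6, a giant ubiquitin ligase, had 1310 and 1160 on the FGF18 and PBS arrays (-0.01 ± 0.20). Birc2, the gene of cIAP1, had 2690 on both arrays, which after scaling is -0.18 ± 0.20, the lowest ratio of the family. Birc3, the gene of cIAP2 and a target of NF-kB, was at -0.10 ± 0.25, with 1900 on the FGF18 array, against 1840 on the PBS array by its brighter probe. Xiap, a direct inhibitor of caspases, was at -0.10 as the mean of probes on opposite sides, one at 290 and 214 for FGF18 and PBS (0.26 ± 0.21) and one at 89.7 and 108 for FGF18 and PBS (-0.45 ± 0.23). Birc7, or livin, was not well above background on either array.

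Among the remaining members, Apaf1, the scaffold of the apoptosome, was at 0.29 ± 0.27 over 2 probes, the brighter with 801 on the FGF18 array, against 613 on the PBS array. Diablo, which displaces IAPs from caspases, had 4220 on the FGF18 array, against 3400 on the PBS array by 1 probe (0.13) and 145 and 170 for FGF18 and PBS by a dimmer one (-0.41), for a mean of -0.14 ± 0.21. Cflar, the FLIP gene that blocks caspase-8 at death receptors, had 6 probes spread from -0.76, at 28.9 and 43.2 for FGF18 and PBS, to 0.29, at 80.1 and 57.7. The brightest Cflar probe had 6250 on the FGF18 array, against 5870 on the PBS array (-0.09 ± 0.20), and the mean was -0.14 ± 0.28. Cflar and Casp8 are neighbours on chromosome 1 and both were within 1 error of the all-gene median.

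**Figure D3:**
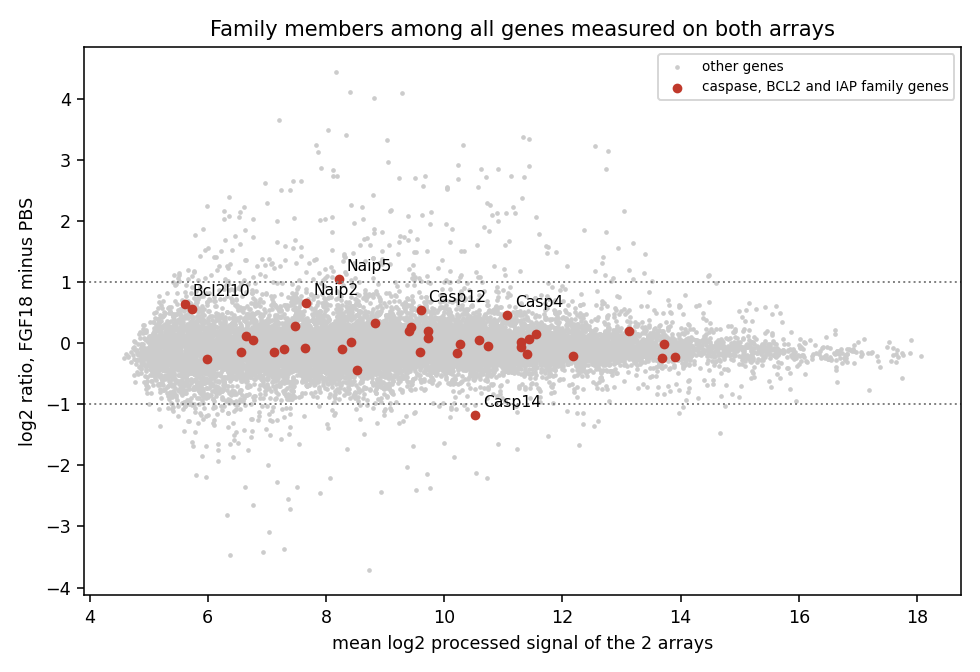
Log2 ratio, FGF18 minus PBS, against the mean log2 signal of both arrays for every gene measured on both (grey) and for 38 family members (red). Dotted lines mark 2-fold; Naip5 lies just above the upper line, Casp14 below the lower one, and Bcl2l10 sits in the wide band of dim genes.

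The partners of these proteins were taken from lists of related pathways. Of 9 measured genes of death receptors and adaptors (median 0.06), Tnfsf10, which encodes the death ligand TRAIL, was at least 2-fold higher: it had 201 on the FGF18 array, against 49.2 on the PBS array, a ratio of 1.85 ± 0.26 (3.60-fold). The receptors Fas and Tnfrsf1a were at 0.04 and 0.06, and the adaptor Fadd was lowest at -0.08. Fasl, the ligand of FAS, was measured with FGF18 alone, at a dim 47.5 against 16.3 with PBS. Set against the PBS floor it was 1.73-fold higher after scaling. Casp8, downstream of these receptors, was at -0.05 on the same arrays.

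Of 7 necroptosis genes (median 0.31), which serve a caspase-independent lytic death, 2 were at least 2-fold higher and 0 lower. Zbp1, a sensor of Z-form nucleic acids induced by interferon, had 6160 on the FGF18 array, against 817 on the PBS array (2.73 ± 0.20, 6.65-fold). Mlkl, the pore-forming executioner, had 1130 and 467 on the FGF18 and PBS arrays (1.09 ± 0.20, 2.13-fold). Ripk3, the kinase that phosphorylates MLKL, was at 0.14 ± 0.20, and Ticam1 was lowest at 0.01.

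Of 12 measured inflammasome and pyroptosis genes (median -0.05), 0 were at least 2-fold higher and 1 was at least 2-fold lower. Gsdmd, the gasdermin cut by caspases 1 and 11, was highest with 2297 on the FGF18 array, against 1247 on the PBS array (0.70 ± 0.20, 1.62-fold). The cytokine gene Il1a was lowest at -1.30 ± 0.26, at dim signals of 58.5 for FGF18 and 127 for PBS. Casp1's adaptor gene Pycard was at 0.11 and its cytokine substrates Il1b and Il18 at -0.27 and -0.39. Nlrc4, the partner of the NAIP proteins, was not well above background on either array. Of the 12 measured, 6 lay above 0 and 6 below, with Nlrp10 among the lower at -0.59 ± 0.20. Gsdmd was higher on the FGF18 array, as were Casp4, Casp12, Naip5 and Naip2, which are not in the list. Casp1 and Pycard were not higher by more than their error, and Il1a, Il1b and Il18 were below 0.

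The mitochondrial and p53 lists had no gene past 2-fold. Of 12 mitochondrial and nuclease genes (median 0.08), Parp1, a DNA repair enzyme, was highest at 0.43 ± 0.20 and Vdac2 lowest at -0.11; Cycs, cytochrome c, was at 0.10. Of 11 p53 pathway genes (median -0.05), Ccng1 was highest at 0.40 ± 0.20 and Perp, a desmosomal protein gene, lowest at -0.44 ± 0.20. For scale, the interferon-response list had a median of 2.39 on the same arrays, with 16 of 18 genes at least 2-fold higher and 0 lower, led by Rsad2 (3.41 ± 0.26), an antiviral enzyme, and with Irf1 lowest at 0.53. The highest of the family, Naip5 at 1.05, stood below this list's median.

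**Figure D4:**
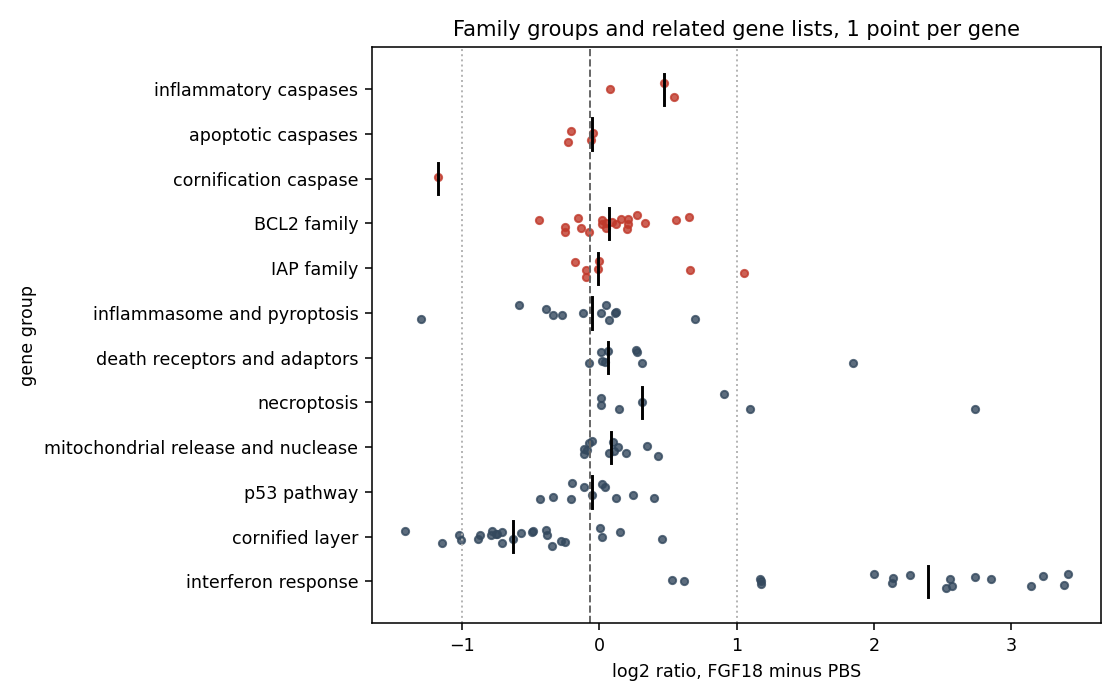
Log2 ratio, FGF18 minus PBS, of genes in the family groups (red) and in related gene lists (dark), with black bars at the group medians, a dashed line at the all-gene median of -0.07 and dotted lines at 2-fold. Casp14 lies among the cornified layer genes, whose median was -0.63, and the family medians lie below that of the interferon-response genes at 2.39, although Naip5 and Naip2 are above the lowest of those genes, Irf1 at 0.53.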

How the data were processed

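Full-thickness back skin was measured on 2 single-colour Agilent arrays of design 014868, 1 per group, grouped by source name. Per the file headers, spots were read by the 9.5.3.1 release of Agilent's Feature Extraction (protocol GE1-v5_95_Feb07). The deposited intensity values include a processed signal, corrected for a spatial and a multiplicative trend according to the headers. The series value table holds, as deposited, a ratio of the processed signal to each array's median, found by setting it against the scanner files (largest departure 0.0078 on the log2 scale). Flags for background, saturation and outliers were also deposited.

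Here, log2 processed signals were scaled to each array's 75th percentile, outlier-flagged spots were dropped, repeat spots were averaged, and a probe was taken as measured where 0.5 or more of its spots carried the well-above-background flag. Ratios of a gene's probes were averaged. A gene measured on 1 array was set against the other array's floor, the lowest signal well above background. No columns of sample values were left unmapped (0). Gene names were updated through the RefSeq table of GRCm38.p6; members were matched by the name in the files. The members, role lists, pathway lists and markers were chosen with earlier results of these data known. Named in the text were every member past 2-fold, caspases, the highest and lowest member of each list, list genes past 2-fold, and members whose probes disagreed; other members are given by role, and 2 members are counted in totals and group medians but not reported here. The steps were tested on simulated data. Alternatives used other scalings, background corrections (limma 3.58.1), filters and probe rules; Python 3.11.15 was used otherwise. The planned results had no test, because each group had 1 array.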

Additional observations from a re-analysis of the deposited data

How the results depend on the processing

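Of 13 alternatives, 4 scalings shift every gene alike, so values centred on the all-gene median cannot move under them. Over the other 9, the centred median of the inflammatory caspases ranged from 0.51 to 0.64 and that of the apoptotic caspases from -0.01 to 0.12. Both upper ends came without a filter on dim probes, where the all-gene median fell to -0.18. The inflammatory caspases have 1 probe each, so their ratios themselves were unchanged there. The ratio of Casp14, which has 1 probe, was -1.16 with quantile normalization, -1.13 with loess, -1.13 with normexp and -1.18 from the value table; filters and probe rules cannot change it. The count of members at least 2-fold higher, 1 in the report, was 0 of 40 with normexp background correction, against 1.01% of all genes. With probes well above background on 1 array it was 2 of 41 (Naip6 added), against 3.19%. Without a filter on dim probes it was 2 of 44 (Naip1 added), against 2.86%. It was 3 at a fold of 1.5 and 0 at a fold of 3, against 3.79% and 0.704% of all genes. The count at least 2-fold lower, 1 in the report, was 0 without scaling and 0 at a fold of 3, against 0.554% and 0.259%. Spike-in scaling over 8 probes, an alternative chosen after seeing the data, raised every ratio by 0.79. It gave 12 of 40 members higher and 0 lower by at least 2-fold, against 14.8% and 0.169% of all genes. Casp14 was then at -0.38. Without scaling the all-gene median was 0.11, and with median scaling 0.03. Over those 9, 344 centred values of members moved by less than the software's error and 12 by more, 5 of these with the brightest probe, which put Bcl2 at 0.06 above the all-gene median. Part of the 344 could hardly move, because filters and probe rules leave the ratio of a member with 1 probe as it was. The value table likewise holds the same processed signals on another scale. No paired analysis was possible because each group had 1 array. Dim probes near the floors of 23.3 (FGF18) and 24.2 (PBS) limit Bcl2l10, Bcl2a1c and Naip6.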
